A study of Mus musculus with 16 samples.

Results

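Monoamine and acetylcholine neuron genes were followed in the hypothalamus of 16 mice. The group holds 10 genes, chosen by name among the 34607 genes on the array, and 12 probes measure them. They are Th, Ddc, Dbh, Slc6a2, Slc6a3, Slc18a2, Tph2, Slc6a4, Hdc and Chat. Of these, 6 genes with 8 probes were well above the scanner's local background on at least 8 of the 16 arrays and were tested, and 4 genes were not.

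To make the 8 KO chimeras, C57BL/6J recipients were irradiated with 950 Rad and injected once behind the eye with whole marrow from a double adrenergic receptor knockout strain carrying Adrb1tm1Bkk. Knockout and C57BL/6J stood at 1 to 4 in this step, which could mean mice (donors against recipients) or cells of a mixed marrow; the labels leave this unsettled. The 8 control mice are also given as irradiated C57BL/6J, and the labels repeat the marrow treatment for them without naming a donor strain, so whether they received marrow is not settled. Hypothalamus was collected after 2 to 3 months of recovery, and total RNA of 1 animal was hybridised to each 1-colour Agilent array. The knockout is in the donor marrow, not in the recipient's neurons; age, sex and the share of blood cells derived from the donor are not given in the sources used here, nor whether KO chimeras shared a donor. Going by its title, the study asked how bone, hypothalamus and gut respond when sympathetic drive is lost.

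Between 27276 (KO chimera 1) and 43248 (control 8) of the 59305 non-control spots per array were well above background. The lowest log2 level so called, with the array's 75th percentile set to 0, was −2.68 on KO chimera 1. On the other arrays it was −5.42 to −4.10. For control 8 the recorded R2 of the spike-in controls was 0, against 0.966 to 0.992 on the other arrays, and the cause was not tested. Of 15 hypothalamus markers, 14 were tested and 13 of those were above background on all 16 arrays, Oxt, Pmch, Hcrt, Pomc and Avp among them, while Otp was not tested. In the comparison of KO chimeras with controls, 935 of 24377 genes passed (3.84%), 252 of them higher and 683 lower. The split was 176 higher and 4212 lower after scaling to each array's median, which moved the median of all genes by −0.13 on the log2 scale, and 27 higher and 244 lower with normexp background correction. It turned round, to 468 higher and 261 lower, when the percentile was taken over probes above background on all arrays, which moved the median of all genes by 0.06. The 6 slides were scanned over 2 days, and each day covered 4 KO chimeras and 4 controls. The number of arrays limits the precision of every value below.

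Neurons that use dopamine, noradrenaline, serotonin or histamine each make their transmitter from an amino acid with a dedicated enzyme, load it into vesicles with the shared carrier encoded by Slc18a2, and, except for histamine, take it back up with a carrier of their own. In the hypothalamus, dopamine neurons of the arcuate and periventricular nuclei and histamine neurons of the tuberomammillary nucleus have their cell bodies, whereas noradrenaline and serotonin reach it through fibres from the brainstem, whose cell bodies hold the mRNA. Chat, which makes acetylcholine, marks cholinergic neurons.

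None of the 6 tested members passed the threshold of adjusted p 0.05 (limma, Benjamini-Hochberg over 24377 genes), against 3.84% of all genes tested. At an unadjusted p under 0.05 there were 2 of 6, Th and Chat (33.3%, against 20.7% of all genes tested), and the exact permutation test over the animals gave the same count. On the log2 scale the tested members ran from −0.52 for Chat to 0.66 for Hdc, KO chimera minus control, with a median of 0.11 against −0.000215 over all genes tested. Levels are log2 processed intensity with the array's 75th percentile set to 0, so they compare animals at 1 probe and not 1 probe with another. In bulk tissue, fewer cells of a type and less RNA per cell cannot be told apart.

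**Figure D1:**
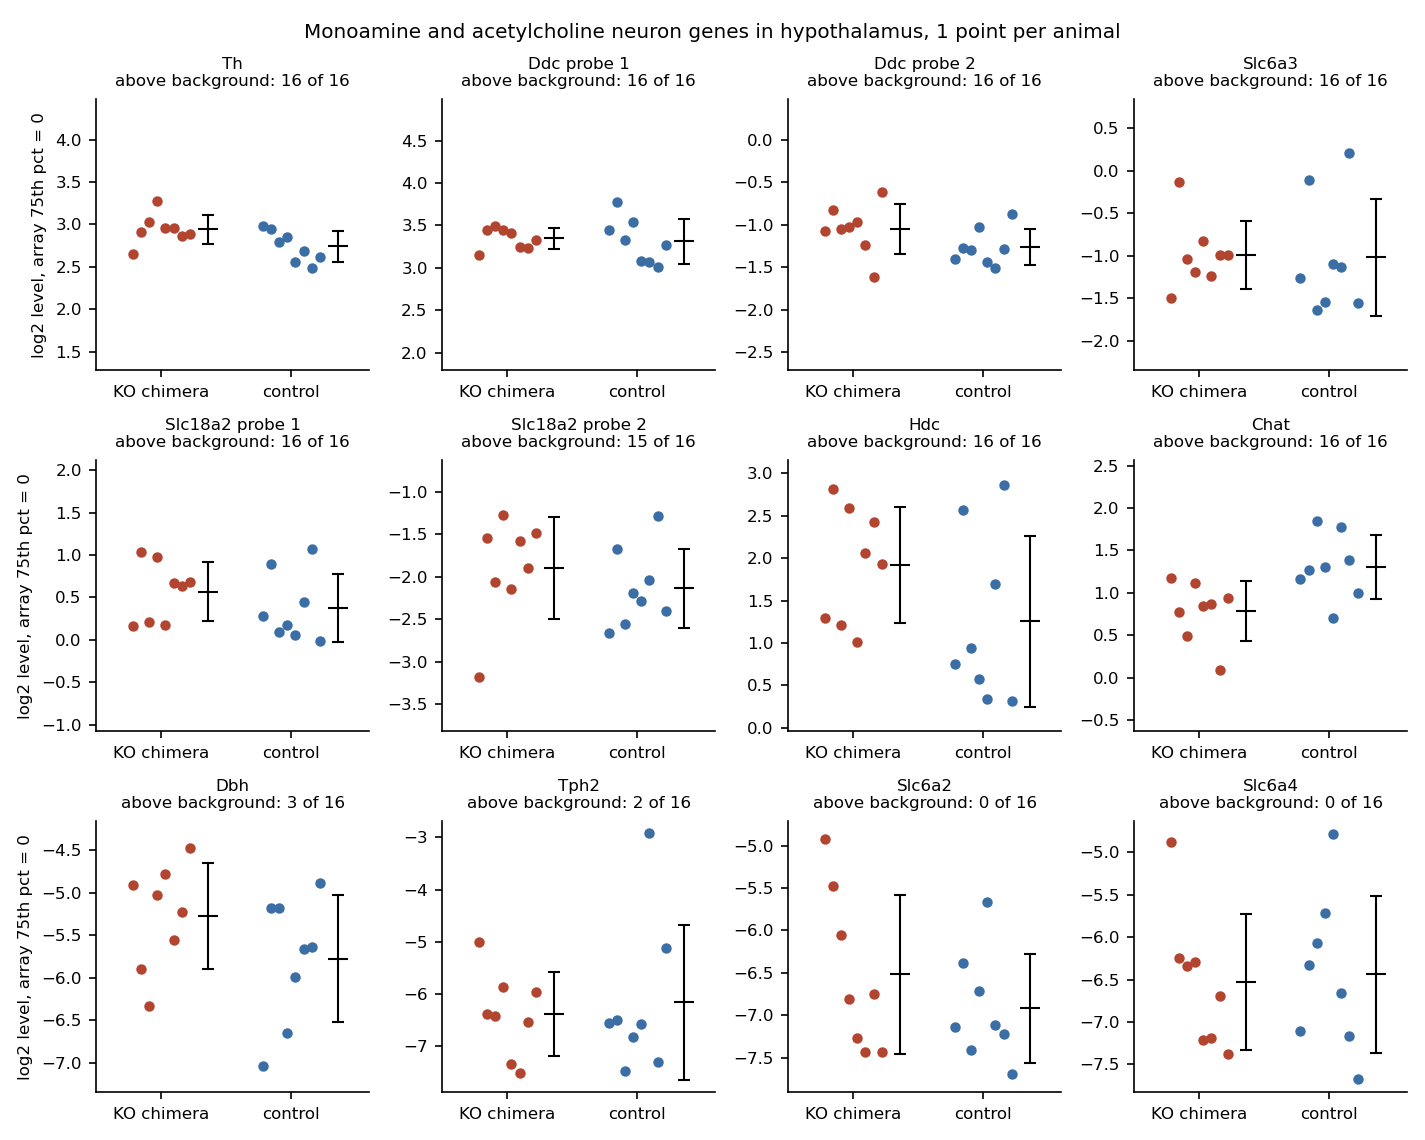
Level of each of the 12 member probes in every animal (log2 processed intensity, array 75th percentile set to 0), with KO chimeras on the left and controls on the right of each panel. Bars beside the points are the mean and SD of 8 animals, and each panel has its own axis. Points of the groups overlap in every panel, Hdc spans over 2 log2 units in the controls, and the lowest row holds the 4 genes near or below background.

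Th encodes tyrosine hydroxylase, the rate-limiting enzyme of dopamine and noradrenaline synthesis. Its probe (mm9 chr7:150078703-150078762, minus strand) was above background on all 16 arrays. In KO chimeras the lowest, median and highest log2 levels were 2.65, 2.93 and 3.27, against 2.49, 2.74 and 2.98 in controls. The groups overlapped, with 7 of 8 KO chimeras above the control median and 2 of them, replicates 3 and 4, above every control. The mean was 2.94 ± 0.17 in KO chimeras and 2.74 ± 0.18 in controls (SD, n = 8 each), a log2 difference of 0.20 (SE 0.09, 95% interval 0.01 to 0.39), or 1.15-fold. It did not pass adjustment over all genes (limma adjusted p = 0.213; exact two-sided permutation p = 0.0395, unadjusted, over all 12870 assignments of the animals). The difference was 0.07 after scaling to each array's median and 0.12 with slide as a fixed block, where the unadjusted limma p was 0.466 and 0.123. With normexp it was 0.16. It was larger, without passing in limma, with quantile normalization (0.27, adjusted p = 0.105) and the deposited value table (0.27, 0.114). The same held for the percentile over probes above background on all arrays (0.26, adjusted p = 0.0944 in limma). The Th difference was 0.08 among animals scanned on the first day and 0.32 on the second.

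Ddc encodes aromatic L-amino acid decarboxylase, which takes the product of tyrosine hydroxylase to dopamine and that of tryptophan hydroxylase to serotonin. The array holds a probe at mm9 chr11:11714106-11714165 and another at chr11:11776262-11776321, both on the minus strand with 62156 bases between their starts, and their last 30 bases are shown because the 2 probes gave different accounts of this gene.
Ddc probe 1: atactaaataaacaacctatgtgcaatact
Ddc probe 2: cagacatgctgtgtggtgctattggctgca
At probe 1 the lowest, median and highest levels were 3.15, 3.37 and 3.50 in KO chimeras, against 3.00, 3.30 and 3.78 in controls. The groups overlapped throughout, and the KO chimeras spread less widely (SD 0.12, against 0.27 in controls). The log2 difference was 0.03 (SE 0.10, 95% interval −0.18 to 0.25, limma adjusted p = 0.887). Probe 2 had levels of −1.61, −1.04 and −0.62 in KO chimeras, against −1.51, −1.29 and −0.88 in controls. Here 7 of 8 KO chimeras lay above the control median and 1 below every control, and the difference was 0.21 (SE 0.12, 95% interval −0.05 to 0.47, adjusted p = 0.350 by limma with every probe tested).

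Dbh encodes dopamine beta-hydroxylase, which turns dopamine into noradrenaline, and its probe (mm9 chr2:27038665-27038724, plus strand) was well above background on 2 KO chimera arrays and 1 control array. Its levels were −6.34, −5.12 and −4.47 in KO chimeras, against −7.04, −5.65 and −4.88 in controls, and no fold is given because most arrays hold only a bound. Slc6a2 encodes the noradrenaline transporter, and its probe (mm9 chr8:95525166-95525225, plus strand) was well above background on 0 of 16 arrays, with readings of −7.43 to −4.93 in KO chimeras and −7.69 to −5.67 in controls. Dbh and Slc6a2 were thus at or near the detection limit in this tissue, and no difference was measurable at this depth of signal.

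Slc6a3 encodes the dopamine transporter, which recovers dopamine from the synapse. Its probe (mm9 chr13:73715973-73716032, plus strand) was above background on all 16 arrays. The lowest, median and highest levels were −1.50, −1.02 and −0.13 in KO chimeras, against −1.64, −1.20 and 0.21 in controls. Both ranges were set by a few animals: KO chimera 2 at −0.13 and controls 2 and 7 at −0.11 and 0.21 stood above the other 13, which lay at or below −0.82. The log2 difference of 0.03 was far smaller than its error (SE 0.26, 95% interval −0.53 to 0.58, limma adjusted p = 0.964).

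Slc18a2 encodes the vesicular monoamine transporter of the brain, shared by dopamine, noradrenaline, serotonin and histamine neurons. Its probes lie at mm9 chr19:59370106-59370165 and chr19:59370153-59370212 on the plus strand and overlap by 13 bases, in capitals in the stretches shown, so they read neighbouring parts of the same RNA.
Slc18a2 probe 1: gatcagcaaaggcatgcCTGTTACTGCTCT
Slc18a2 probe 2: CTGTTACTGCTCTccaaagaaaaaagaaaa
At probe 1 the lowest, median and highest levels were 0.17, 0.65 and 1.03 in KO chimeras, against −0.01, 0.23 and 1.07 in controls. The groups overlapped fully, with 5 of 8 KO chimeras above the control median. The log2 difference was 0.19 (SE 0.18, 95% interval −0.18 to 0.56, limma adjusted p = 0.567). Probe 2 ran from −3.18 to −1.27 in KO chimeras, against −2.66 to −1.28 in controls, with a difference of 0.24 (SE 0.25, adjusted p = 0.624 by limma with every probe tested). It was well above background on 15 of 16 arrays.

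Tph2 encodes the neuronal tryptophan hydroxylase that starts serotonin synthesis, and Slc6a4 the serotonin transporter. The Tph2 probe (mm9 chr10:114516684-114516743, minus strand) was well above background on 0 KO chimera arrays and on 2 control arrays, control 6 at −2.92 and control 8 at −5.13. All other animals lay between −7.52 and −5.00. The Slc6a4 probe (mm9 chr11:76845777-76845836, plus strand) was well above background on 0 of 16 arrays, with readings of −7.38 to −4.88 in KO chimeras and −7.68 to −4.78 in controls. Tph2 and Slc6a4 transcripts were therefore not measurable in most animals, and neither gene was tested.

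Hdc encodes histidine decarboxylase, the only enzyme that makes histamine, found in tuberomammillary neurons and, outside the nervous system, in mast cells and basophils. Its probe (mm9 chr2:126419516-126419575, minus strand) was above background on all 16 arrays. The lowest, median and highest log2 levels were 1.01, 2.00 and 2.82 in KO chimeras, against 0.31, 0.84 and 2.87 in controls. All 8 KO chimeras lay above the control median, but none lay above every control, because control 7 at 2.87, control 2 at 2.57 and control 6 at 1.70 reached the KO chimera range. The mean was 1.92 ± 0.68 in KO chimeras and 1.26 ± 1.00 in controls (SD, n = 8 each), a log2 difference of 0.66 (SE 0.40, 95% interval −0.17 to 1.50), or 1.58-fold with an interval of 0.886 to 2.82. It did not pass (limma adjusted p = 0.357; exact two-sided permutation p = 0.143), and an interval this wide covers both no difference and a rise of over 2-fold.

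The spread of Hdc between animals was the widest of the tested members. Over the 16 animals it spanned 5.86-fold. Its SD within groups of 0.86 exceeded that of 99.3% of all genes tested, and of 99.9% of the 2470 genes whose mean lay within 0.5 log2 units of its own. The same share of all genes tested was 94.2% for Slc6a3, 80.9% for Slc18a2 and 79.6% for Chat, but 50.8% for Ddc and 41.1% for Th. High and low animals shared slides: on slide 3, controls 3, 6 and 7 had Hdc levels of 0.94, 1.70 and 2.87. The group difference in Hdc was 1.17 on the first scan day and 0.16 on the second, and within slides it ran from −0.83 on slide 3 to 2.09 on slide 5, where each group had 1 animal.

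Mast cell and basophil markers were measured beside Hdc. Of 10 such markers 3 were tested (Tpsb2, Kit and Prss34) and 0 passed in limma, with Cpa3, Cma1, Mcpt4, Tpsab1, Ms4a2, Fcer1a and Mcpt8 failing the background filter. Their mean level, centred per gene, ran from −0.12 to 0.27 in KO chimeras and from −0.30 to 0.11 in controls, and its part in the Hdc levels was not tested.

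**Figure D2:**
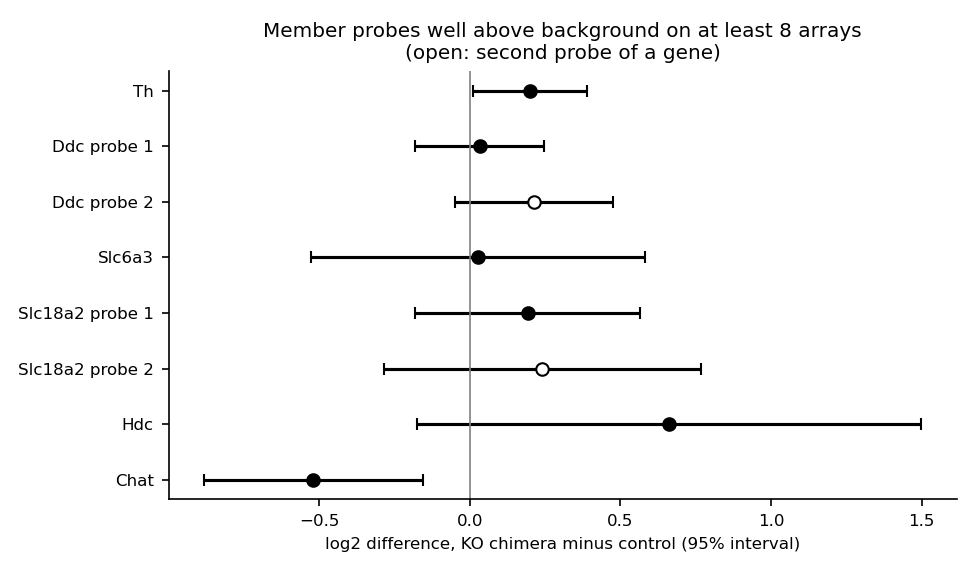
Log2 difference, KO chimera minus control, of the 8 member probes that passed the background filter, with 95% intervals from limma; open points are the second probes of Ddc and Slc18a2. Intervals of Th and Chat lie on 1 side of 0 before adjustment, and the Hdc interval is the widest, from −0.17 to 1.50.

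Chat encodes choline acetyltransferase. Its probe (mm9 chr14:33221421-33221480, minus strand) was above background on all 16 arrays. The lowest, median and highest log2 levels were 0.09, 0.86 and 1.17 in KO chimeras, against 0.70, 1.29 and 1.85 in controls. All 8 KO chimeras lay below the control median and 2 of them, replicates 3 and 7, below every control, while the ranges still overlapped. The mean was 0.79 ± 0.35 in KO chimeras and 1.31 ± 0.38 in controls (SD, n = 8 each), a log2 difference of −0.52 (SE 0.17, 95% interval −0.88 to −0.16), or 0.698-fold. It did not pass adjustment over all genes (limma adjusted p = 0.0956; exact two-sided permutation p = 0.0113, unadjusted). After scaling to each array's median it passed (−0.65, adjusted p = 0.0133), as it did with array weights (−0.61, adjusted p = 0.0406). Median scaling called 4388 of all genes, 4212 of them lower. Chat did not pass in limma with quantile normalization (−0.48, adjusted p = 0.149) or the deposited value table (−0.48, 0.149). Nor did it with normexp (−0.47, 0.179) or the percentile over probes above background on all arrays (−0.45, 0.146). Among animals of the first scan day the difference was −0.33 and among those of the second −0.71.

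The Chat probe ends in a simple repeat. The last 22 of its 60 bases are a tandem repeat of the unit GAAA, with 5 whole copies. The run GAAAGAAAGAAAGAAA occurs in 6 of 55681 probes on the same strand, and in 7 (0.0126%) when both strands are searched. All 7 were well above background on at least 8 arrays, against 63.1% of all probes. The 30-base stretches of Chat and of the 2 genes most like it among those named through RefSeq are shown with the repeat in capitals, on the plus strand of mm9 chr12:107075105-107075164 for the whole Papola probe and of chr2:126584484-126584543 for that of Usp8.
Chat: gctattcaGAAAGAAAGAAAGAAAGAAAGA
Papola: aaagGAAAGAAAGAAAGAAAGgaaaagagg
Usp8: atcaAAAGAAAGAAAGAAAGAAAacagcct

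Among 16852 other genes named through RefSeq, Papola, which encodes a poly(A) polymerase, and Usp8, a ubiquitin-specific protease, had the highest correlation with Chat over the 16 animals after removing group means (r = 0.95 and 0.83). Both carry the run. Other probes with it on the same strand, found by sequence alone, had r of 0.85 (AI790442, a name from the array files that was outside that search and ranks above Usp8) and 0.56 (Siglech) with Chat, and the Ulk3 probe with the run on the opposite strand had 0.39. Their log2 differences were −0.45 for Papola, −0.51 for AI790442, −0.51 for Usp8, 0.11 for Siglech and 0.35 for Ulk3. Of the first 4, which have the run on the same strand, 0 passed in limma with every probe tested, where Ulk3 did (adjusted p = 0.0310). These correlations describe how the probes moved together, with n = 16 and a shared sequence, and carry no test. The part of the repeat in the Chat signal was not tested.

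No correlation of Chat with the other transporter genes of cholinergic neurons passed. Slc18a3, the vesicular acetylcholine transporter, whose gene lies within the Chat locus and whose probe is at mm9 chr14:33275627-33275686, had r = 0.17 with Chat (rho = 0.11, permutation adjusted p = 0.596 and 0.680 over 8 relations, r = 0.24 without KO chimera 7 and control 5). Its r was 0.25 and 0.72 on the first and second scan day. Slc5a7, the high-affinity choline transporter, had r = 0.24 (rho = 0.26, adjusted p = 0.463 and 0.421, r = 0.15 without the same animals, 0.40 and 0.52 on the scan days). Slc18a3 and Slc5a7 were correlated with each other (r = 0.86, rho = 0.67, permutation adjusted p = 0.00379 and 0.0130), with r = 0.94 and 0.76 on the scan days and 0.54 without KO chimera 8 and control 6. Neither transporter differed past the threshold, with log2 differences of −0.19 (SE 0.28, limma adjusted p = 0.739) for Slc18a3 and −0.32 (SE 0.42, limma adjusted p = 0.704) for Slc5a7. KO chimera 8 raised both KO chimera means. It stood at −0.13 for Slc18a3, with the other KO chimeras at −2.46 to −1.47. For Slc5a7 it stood at 0.03, with the others at −3.67 to −2.51. Below every control lay 2 KO chimeras for Slc18a3 and 4 for Slc5a7. A second Slc5a7 probe gave −0.59 and did not pass. The differences without KO chimera 8 were not tested.

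**Figure D3:**
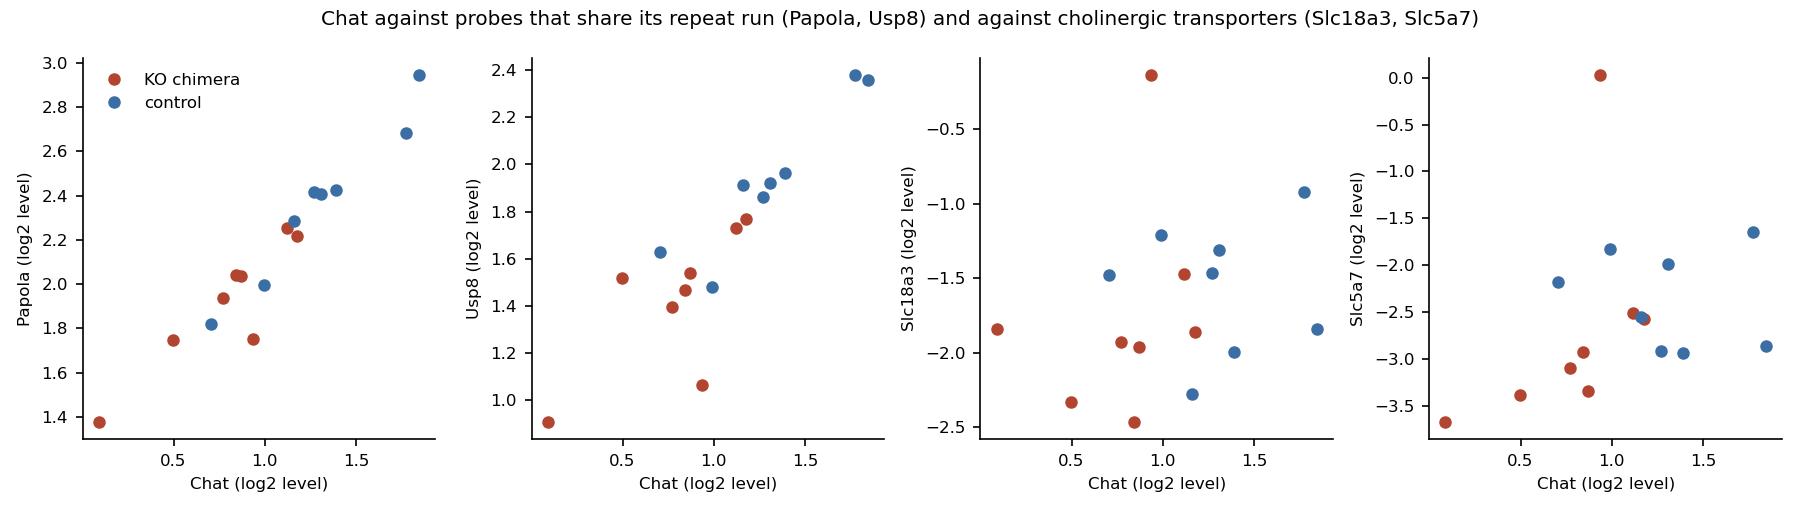
Log2 level of Chat in each of the 16 animals (horizontal) against Papola and Usp8, whose probes share a repeat run with the Chat probe, and against the cholinergic transporters Slc18a3 and Slc5a7 (vertical). The points of Papola and Usp8 lie close to a line (r = 0.95 and 0.83 after removing group means), those of Slc18a3 and Slc5a7 do not (0.17 and 0.24), and KO chimera 8 stands above the rest in both transporter panels.

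The 15 pairs of tested members were compared over the 16 animals after removing group means, with permutation of animals within groups. By Pearson's r, 4 pairs passed an adjusted p of 0.05, and 2 of these passed by Spearman's rho as well. The share of all gene pairs that would pass the same test was not computed. Whether these counts are unusual for genes on these arrays therefore cannot be told. Hdc and Slc18a2 were the most closely tied, with r = 0.96 and rho = 0.90. The permutation p was 1e-05, the smallest that 100000 resamples can give, and 0.00015 after adjustment. The relation was r = 0.93 without controls 2 and 7, 0.96 and 0.97 on the 2 scan days, 0.97 with slide means removed, and 0.95 to 0.96 under 5 other scalings. With the second Slc18a2 probe it was r = 0.74 (rho = 0.76, permutation adjusted p = 0.00164 and 0.00544 over 8 relations), and 0.62 and 0.89 on the scan days.

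Animals high in histidine decarboxylase were thus the animals high in the vesicular carrier that histamine neurons use. KO chimera 2, KO chimera 4, control 2 and control 7 had the highest levels of both, with Hdc at 2.82, 2.59, 2.57 and 2.87 and Slc18a2 at 1.03, 0.97, 0.89 and 1.07. Control 8 and control 5 had the lowest of both, at 0.31 and 0.34 for Hdc and −0.01 and 0.06 for Slc18a2. Beyond each other, the gene most like both was Wif1, a secreted inhibitor of Wnt signalling (r = 0.96 with Hdc and 0.92 with Slc18a2, given as a description). Wif1 spanned −3.35 to −0.65 in KO chimeras, against −3.29 to −0.33 in controls, with a difference of 0.50 (SE 0.51, limma adjusted p = 0.612).

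Slc6a3 varied with the same animals. Its r was 0.77 with Slc18a2 (permutation adjusted p = 0.0127) and 0.76 with Hdc (permutation adjusted p = 0.0146). The rank correlations of 0.54 and 0.53 did not pass (permutation adjusted p = 0.154 and 0.181). Without controls 2 and 7 the values were r = 0.55 and 0.49, so both relations rest in part on those animals. Among KO chimeras alone r was 0.46 with Slc18a2 and 0.42 with Hdc, against 0.95 and 0.90 among controls. On the first and second scan day r was 0.94 and 0.61 with Slc18a2, and 0.90 and 0.61 with Hdc. With Slc18a2 probe 2, Slc6a3 passed by both measures (r = 0.65, rho = 0.61, permutation adjusted p = 0.0104 and 0.0304 over 8 relations), with r = 0.68 and 0.62 on the scan days and 0.46 without controls 2 and 7. The genes most like Slc6a3 were the transcription factor genes Irx3 (r = 0.86) and Foxb1 (r = 0.85).

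Th and Ddc probe 1 formed a second pair, with r = 0.77 and rho = 0.83 (permutation adjusted p = 0.00382 and 0.0033). The relation was r = 0.83 without KO chimeras 1 and 4, 0.95 and 0.82 on the scan days, and 0.68 to 0.77 under 5 other scalings. It did not extend to Ddc probe 2, which had r = 0.03 with Th (rho = 0.15, permutation adjusted p = 0.922 and 0.678) and r = 0.31 with Ddc probe 1 (rho = 0.48, permutation adjusted p = 0.321 and 0.102). On the scan days the r of Th with Ddc probe 2 was 0.16 and 0.13. Over all animals r with Hdc was 0.08 for Th and 0.03 for Ddc probe 1 (rho = 0.11 and −0.04), and neither passed (permutation adjusted p = 0.925 and 0.929). These values averaged over opposite signs, with r of 0.59 for Th and 0.61 for Ddc probe 1 on the first scan day, but −0.43 and −0.76 on the second, a difference between days that was not tested. The genes most like Th were Zcchc12 and Pnpt1 (r = 0.88 each), and those most like Ddc probe 1 were Lnx1 (r = 0.94) and Pigx (r = 0.92).

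**Figure D4:**
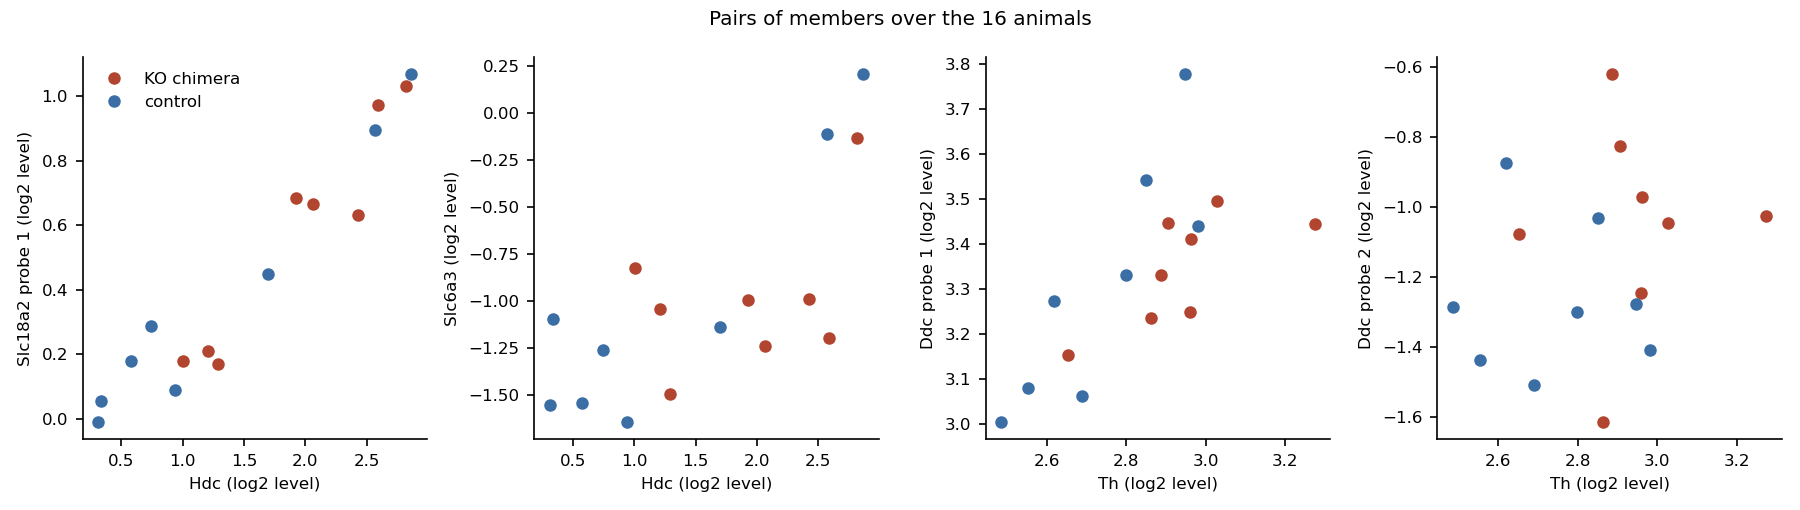
Log2 levels of pairs of member probes in the 16 animals: Slc18a2 probe 1 and Slc6a3 against Hdc, and the 2 Ddc probes against Th. Slc18a2 follows Hdc along a line in both groups (r = 0.96), Slc6a3 is raised in 3 animals at the high end of Hdc, and Th goes with Ddc probe 1 (r = 0.77) but not probe 2 (r = 0.03).

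Around these 10 genes, 87 further genes of the same pathways were listed, covering cofactor enzymes, other transporters, degrading enzymes, transcription factors and receptors. Of these 67 were tested and 7 passed (10.4%, against 3.84% of all genes tested), 6 lower (2.8% of all genes tested) and 1 higher (1.03%). The median difference over the 67 was −0.03. All 7 kept their direction in 32 of 32 alternative analyses, but not their call. A kept direction says little here, since 16 of these analyses left out 1 animal and several others leave the difference itself unchanged. Of the 32, Htr2c and Htr7 passed in 29 each, Slc44a1 in 28, Hrh3 in 20, Chrna4 in 13, Htr2a in 12 and Maoa in 9. With slide as a fixed block, Maoa (−0.25, limma adjusted p = 0.0572) and Htr2a (0.30, limma adjusted p = 0.148) did not pass.

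Receptors made up 5 of the 7, with 3 of 11 tested serotonin receptors. Htr2c, a Gq-coupled receptor known for restraint of feeding, had levels of 1.94, 2.36 and 2.49 (lowest, median, highest) in KO chimeras, against 2.60, 2.79 and 3.05 in controls. All 8 KO chimeras lay below every control, a separation that 0.956% of all genes tested showed in either direction. The log2 difference was −0.47 (SE 0.08, limma adjusted p = 0.0101), but a second Htr2c probe gave −0.07 and did not pass. Htr7, a Gs-coupled receptor, had 1.52, 1.73 and 1.96 in KO chimeras, against 1.93, 2.12 and 2.33 in controls. Only 1 KO chimera reached the control range, and Htr7 fell by 0.38 (log2 difference, SE 0.08, limma adjusted p = 0.0165). Htr2a moved the other way, at −1.09, −0.83 and −0.67 in KO chimeras, against −1.52, −1.19 and −0.98 in controls, with 5 of 8 KO chimeras above every control. Its difference was 0.34 (SE 0.09, limma adjusted p = 0.0414). Among the other 8 tested, Htr1f had −0.58 (adjusted p = 0.117), Htr4 0.29 (0.265) and Htr1a −0.19 (0.580) in limma.

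Hrh3, the Gi-coupled receptor through which histamine neurons limit their own release, had levels of 3.17, 3.30 and 3.67 in KO chimeras, against 3.37, 3.78 and 4.21 in controls. It lay below every control in 6 of 8 KO chimeras and fell by 0.47 (log2 difference, SE 0.11, limma adjusted p = 0.0302). Neither other tested histamine receptor passed, Hrh1 at 0.03 (limma adjusted p = 0.877) and Hrh4 at −0.14 (0.491). The 2 other Hrh1 probes gave 0.20 to 0.42 and did not pass either. Chrna4, a subunit of the main nicotinic receptor of brain, had −0.34, −0.12 and 0.33 in KO chimeras, against −0.07, 0.56 and 1.26 in controls. It was the 1 of 11 tested acetylcholine receptor genes to pass, with a log2 difference of −0.67 (SE 0.17, limma adjusted p = 0.0403), and its second probe passed as well at −0.62. Its partner subunit Chrnb2 had −0.25 (adjusted p = 0.170), Chrm3 −0.41 (0.0786) and Chrm4 0.35 (0.175) in limma. None of the 5 dopamine receptors passed in limma, led by Drd5 at −0.35 (adjusted p = 0.204), Drd1 at 0.24 (0.393) and Drd2 at 0.12 (0.618).

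Maoa, the monoamine oxidase that degrades serotonin and noradrenaline, had levels of 0.60, 0.86 and 0.91 in KO chimeras, against 0.92, 1.03 and 1.27 in controls. The groups did not overlap, though the gap between them was under 0.01, and Maoa fell by 0.23 (log2 difference, SE 0.06, limma adjusted p = 0.0428). It was the 1 of 10 degrading enzymes to pass, beside Maob at −0.44 (limma adjusted p = 0.112), Bche at −0.31 (0.0599) and Hnmt, which inactivates histamine in brain, at −0.21 (0.177). Slc44a1, a choline transporter-like protein, had 0.72, 0.89 and 1.04 in KO chimeras, against 0.99, 1.31 and 1.77 in controls, with 6 of 8 KO chimeras below every control. It fell by 0.46 (log2 difference, SE 0.10, limma adjusted p = 0.0217), while its 2 other probes gave −0.12 to 0.42 and did not pass. It was the 1 of 6 tested transporters to pass.

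None of the 9 tested synthesis and cofactor enzymes passed in limma, with Gchfr, a regulator of tetrahydrobiopterin synthesis, at 0.29 (adjusted p = 0.121), Qdpr at −0.19 (0.139) and Cyb561 at −0.12 (0.283). None of the 12 tested transcription factor genes did, with Meis2 at −0.57 (limma adjusted p = 0.157), En2 at −0.15 (0.187) and Lmx1b at 0.15 (0.510).

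Htr2c, Htr7 and Slc44a1 kept their call with each of the 16 animals left out in turn. Hrh3 lost it without KO chimera 2, 4 or 6 or control 5 or 7 (−0.41 to −0.47, adjusted p up to 0.0633 in limma). Chrna4 lost it without KO chimera 1, 2, 4, 5, 6 or 8 or control 1, 2, 3, 5 or 7 (−0.58 to −0.70, adjusted p up to 0.0777). Htr2a lost it without KO chimera 1, 2, 4, 5 or 6 or control 1, 2, 3, 5, 7 or 8 (0.30 to 0.35, adjusted p up to 0.0818). Maoa lost it with any of 13 animals left out, all but KO chimera 8 and controls 6 and 8 (−0.20 to −0.25, adjusted p up to 0.0847). Without the 4 animals of the slides that held 1 of each group, 0 of 7 passed in limma (16 of the 67 at an unadjusted p under 0.05), Htr2c coming closest at −0.41 (adjusted p = 0.0541).

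Markers of other cell types and regions moved beside these receptor genes. Thalamus markers had a median difference of −0.62, with 12 of 13 below 0 and 2 passing as lower. Oligodendrocyte markers had −0.29, with 10 of 12 below 0 and 4 passing as lower. Microglia markers had −0.23, with 10 of 10 below 0 and 3 passing as lower. These counts take each gene at its brightest probe. The 2 other Cx3cr1 probes gave −0.25 to 0.61, and 1 of them passed (smallest adjusted p = 0.00652 by limma with every probe tested). Cortex and hippocampus markers had −0.43, with 6 of 7 below 0 and 1 passing as lower. Of all genes tested, 2.8% passed as lower. The mean thalamus level, centred per gene, ran from −1.36 to 0.32 in KO chimeras and from −0.89 to 1.31 in controls. The oligodendrocyte mean ran from −0.32 to 0.06 in KO chimeras and from −0.14 to 0.46 in controls, the microglia mean from −0.29 to −0.04 in KO chimeras and from −0.04 to 0.27 in controls, and the cortex and hippocampus mean from −0.73 to 0.19 in KO chimeras and from −0.12 to 0.69 in controls. All markers of the thalamus, oligodendrocyte and microglia lists passed the background filter. Ependyma and tanycyte markers went the other way in the median, at 0.46, with 8 of 10 above 0 and 1 of 10 past the threshold, Dio2, which was lower. Their mean ran from −0.09 to 0.57 in KO chimeras and from −0.61 to 0.55 in controls. Markers of neurons in general had a median of −0.12, with 7 of 8 below 0 and 1 passing as lower. Their mean ran from −0.26 to 0.04 in KO chimeras and from −1.52e-05 to 0.21 in controls. The part of these cell types in the receptor and Chat values was not tested. Markers of the other sites of cholinergic neurons had medians of −0.01 (medial habenula, 0 of 6 passing in limma) and 0.01 (striatum, 0 of 10).

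**Figure D5:**
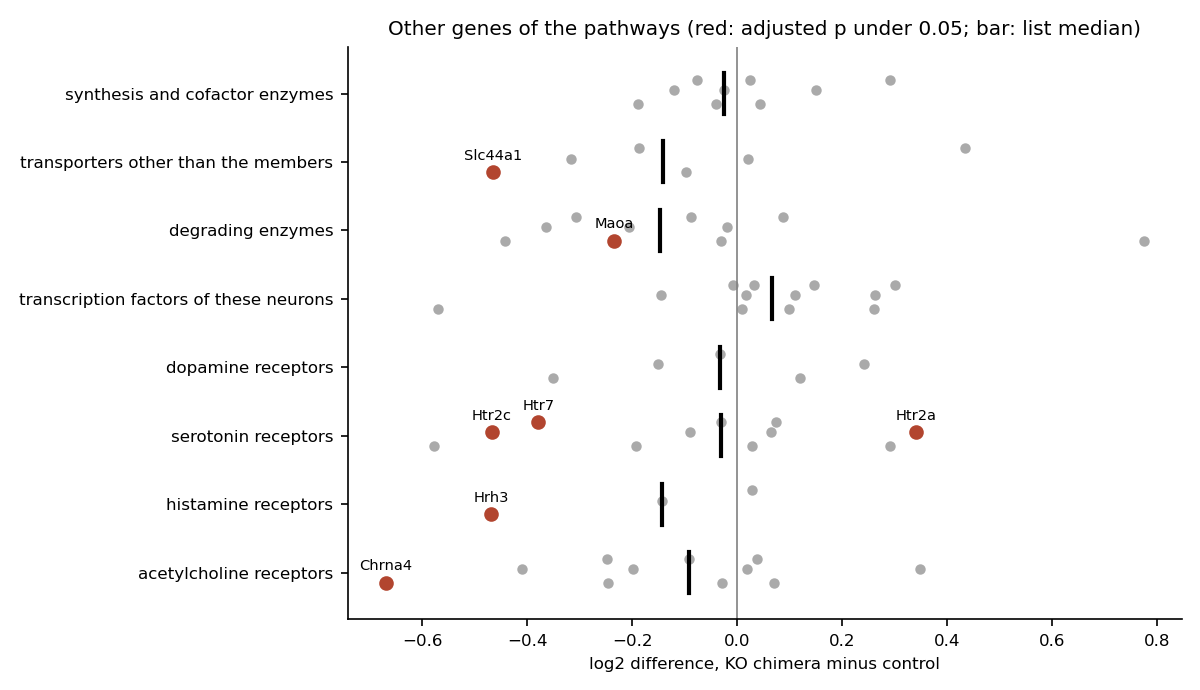
Log2 difference, KO chimera minus control, of the 67 tested genes of the monoamine and acetylcholine pathways, by list; red points passed an adjusted p of 0.05 in limma and black bars are list medians. Of the 7 red points 6 lie left of 0, and list medians lie between −0.15 and 0.07.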

How the data were processed

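Processed intensity per spot, linear and background-subtracted per the file headers, was deposited as scanner output. The software was Agilent Feature Extraction, version 10.7 in the submitters' processing notes and 10.1.1.1 in the file headers. A deposited log2 value table, aligned between arrays by an unstated step, served as an alternative only. Its columns had medians of 5.21 to 5.26 and, over their brighter values, a correlation of at least 0.9996 with the scanner's log2 values. Dim values were left out of that correlation, among them the 22.1 to 23.2% of each column at the table's floor. Direction, scale and lack of centring were read from that match of the brighter values.

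Control and outlier spots were left out, log2 was taken, the array's 75th percentile subtracted and spots of a probe averaged. Kept were the 35159 probes that stood well above background on 8 arrays or more, and the brightest probe per gene was tested with limma 3.58.1 (R 4.3.3), Benjamini-Hochberg threshold 0.05. Probes were named by RefSeq accession (28026), current symbol (3418) or older symbol (295); 23942 kept the file's name. Group and replicate were read from the labels (for KO chimera 2, whose title has a zero for the letter O, the group from its source name). Sequences and mm9 positions are those in the array files.

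Members, lists and tests were chosen with earlier results of these data known. The genes named are all members; of each pathway list the genes that passed and the 3 others with the smallest p; and the 2 genes most like each tested member. Probes sharing the repeat run were added after seeing the data, as were the other scalings and probes for the correlations and the cholinergic transporters as partners of Chat. Replicate numbers were checked for pairing: same-numbered animals correlated at −0.08 to 0.24, and 2 of 8 best with their own number. Correlations this low cannot settle whether animals were paired, and the main fit used no pairing. The main fit was first tested on simulated data, and the alternative fits were not. No 2 arrays were duplicates (correlations of 0.974 to 0.995). Some results are not reported here. Plots used matplotlib 3.10.9 under Python 3.11.15.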

Additional observations from a re-analysis of the deposited data

Results flagged for a closer look

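Among the 24 groups of 8 animals examined (12 member probes in each group), 2 held an animal far from the others, and chance alone marks about 1 in 20 such groups. Both were KO chimera 1, whose array had the fewest spots well above background. At Slc18a2 probe 2 it was the lowest KO chimera at −3.18, with the nearest at −2.14, while probe 1 of the same gene placed it at 0.17 beside KO chimera 5 at 0.18. At Slc6a4 it was the highest at −4.88, with the nearest at −6.24, at a probe that was well above background on 0 of 16 arrays.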

How the results depend on the processing

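The count of 935 genes was 534 with quantile normalization, 4388 with median scaling, 271 with normexp, 537 with the deposited value table, 598 with no filter on dim probes (40.5% of them higher, against 27.0%), 488 with slide as a fixed block and 2043 at a threshold of 0.1. It was 85 without the slides with 1 animal per group, 0 on scan day 1 alone (limma; 2839 at an unadjusted p under 0.05), 7 on scan day 2 alone (4 of them higher) and 364 to 1039 with 1 animal left out. The count of members was 0 except for Chat, giving 1 with median scaling, with array weights and at the threshold of 0.1, and was 0 with each animal left out. The count of 7 pathway genes was 4 with quantile normalization, the value table, the percentile over probes above background on all arrays or no filter, 18 with median scaling, 2 with normexp, 0 in limma on either scan day (15 and 12 at an unadjusted p under 0.05) or without the slides with 1 animal per group, and 3 to 7 with 1 animal left out. The settings by scan day, slide or animal hold fewer animals; for the others the cause was not tested. The replicate block gave 823 genes, 0 members (Chat adjusted p = 0.142) and 7 pathway genes, and of the calls named only that of Maoa was lost (adjusted p = 0.0827).

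Th, Slc18a2, Hdc and Chat kept their direction in 32 of 32 refits, though within single slides Slc18a2 (−0.36 on slide 3), Hdc (−0.83 on slide 3), Chat (0.18 on slide 4) and Th (−0.0020 on slide 6) did not. Of the refits, 16 left out 1 animal and several others leave the difference itself unchanged, so a kept direction says little. The other tested members, near 0, changed sign. Ddc was −0.10 with median scaling, −0.026 with slide as a fixed block, −0.13 on scan day 1 and −0.012 to 0.10 with 1 animal left out. Slc6a3 was −0.016 with quantile normalization, −0.10 with median scaling, −0.0091 with normexp, −0.018 with the value table, −0.12 on scan day 2 and −0.095 to 0.20 with 1 animal left out. Neither passed in any of these, and the cause was not tested. Dbh, Tph2, Slc6a2 and Slc6a4 are limited by signal over background.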
